A study of Mus musculus with 26 samples.

Results

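The mir-29 family was followed across 26 small RNA libraries of mouse hippocampus. Its members were the miRNA entries of the deposited table named mmu-mir-29a, mmu-mir-29b-1, mmu-mir-29b-2 and mmu-mir-29c, which made 4 of the 1054 miRNA entries and 4 of the 1360 entries of the whole table. All 4 members passed the filter on low counts, which left 463 miRNA entries to test. The libraries came from whole dorsal (dHC) or ventral (vHC) hippocampus of male C57BL/6J mice aged 2 to 3 months, with both hemispheres taken. Control mice (CTRL) stayed in the homecage, and stressed mice (Swim) swam for 6 min in water of 18 °C and were collected 45 mins after the swim began. There were 8 vHC CTRL, 6 vHC Swim, 6 dHC CTRL and 6 dHC Swim libraries. The labels place them in 3 blocks, given as dates, of 10, 8 and 8 libraries. Which step of the work the dates mark was not established. Block 1 held 4 vHC CTRL libraries and 2 of each other group, and blocks 2 and 3 held 2 of each group. Which dHC and vHC libraries share a mouse is not given in the labels used here, so the p-values below measure the spread between libraries.

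The miR-29 family is one of the abundant miRNA families of the adult brain. It is low in young neurons and rises as they mature, and in mature neurons it is known to restrain pro-apoptotic BH3-only genes and the DNA methyltransferase Dnmt3a. Outside the nervous system it is best known as a brake on collagens and other matrix genes. miRNAs find their targets mainly through the seed, bases 2 to 8 from the 5′ end, so members with the same seed can act on overlapping sets of mRNAs. Because these libraries are bulk tissue, the cell of origin of the family could not be read from them, and fewer cells of a type and less RNA per cell cannot be told apart.

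The mature sequences show what the members share, and why the mir-29b entries have to be read with care. They are given as RefSeq lists them on GRCm38.p6, from 5′ to 3′, with the seed in capitals:
miR-29a-3p: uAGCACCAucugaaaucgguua
miR-29b-3p: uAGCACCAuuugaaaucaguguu
miR-29c-3p: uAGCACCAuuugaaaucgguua
The seed AGCACCA is common to all of them, and 3 mature mouse miRNA names in the RefSeq set carry it, all of this family. Counted from 1 at the 5′ end, miR-29c-3p differs from miR-29a-3p by C10U alone, and both are 22 bases long. miR-29b-3p, of 23 bases, shares its first 17 bases with miR-29c-3p and differs from it after that by G18A, U21G and A22U, and by its last base. The share of G and C was 40.9% in miR-29a-3p, 34.8% in miR-29b-3p and 36.4% in miR-29c-3p.

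The mir-29b precursors give the same miR-29b-3p and differ in the other arm, as these 5p sequences show:
miR-29b-1-5p: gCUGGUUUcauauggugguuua
miR-29b-2-5p: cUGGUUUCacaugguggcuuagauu
The table has 1 entry for each precursor and does not separate the arms, so counts from miR-29b-3p could not be assigned to one locus or the other.

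The family lies in 2 clusters on GRCm38. Mir29a (chr6:31062660-31062747, minus strand) and Mir29b-1 (chr6:31063023-31063093, minus strand) are 275 bases apart. Mir29b-2 (chr1:195037040-195037120, plus strand) and Mir29c (chr1:195037547-195037634, plus strand) are 426 bases apart. In the GENCODE annotation the chromosome 1 pair lies in an exon of the noncoding transcript A330023F24Rik on the same strand, and opposite an exon of Cd46, a complement regulator. The 5′ end of Mir29b-1 overlaps the exon of the long noncoding RNA Gm27019, and Mir29a overlaps no other annotated gene.

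Total miRNA counts per library were between 465387, in dHC CTRL library 24, and 4819724, with a median of 2614270, and the next lowest was 1357739. The lowest count of any member was 229, for mir-29b-1, and counts of mir-29a reached 112549. Levels below are in normalized CPM, the usual scale of counts relative to the total miRNA count of a library, after TMM scaling. They are not divided by length: the 3p miRNAs of the family are 22 or 23 bases long, and the 5p miRNA of mir-29b-2 has 25 bases.

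mir-29a was the ninth most abundant of the 463 entries and mir-29c stood at rank 17, while the mir-29b entries lay far lower. The mean level of mir-29a was 20428 normalized CPM, between mir-128-1 (24116) and mir-128-2 (19299), which carry a neuronal miRNA. The mean of mir-29c was 15021 normalized CPM, between let-7a-2 (16763) and mir-434 (14243). mir-29b-2 had rank 111 with a mean of 1408 normalized CPM, and mir-29b-1 had rank 113 with a mean of 1368. Only mir-150 (1377 normalized CPM) stood between them, with mir-708 (1446) above the pair and mir-153 (1342) below it. Together the family made 2.59% to 5.77% of all miRNA counts in a library (median 3.65%). Within the family mir-29a held 50.0% to 55.7%, mir-29c 36.3% to 42.5% and the mir-29b entries together 3.07% to 13.2% of the counts. The order mir-29a, mir-29c, mir-29b held in each of the 26 libraries, and the mir-29b shares varied over the widest range relative to their median of 5.61%.

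Levels in the 4 groups overlapped for each member. In vHC CTRL mir-29a lay between 14216 and 23999 normalized CPM with a median of 19437 (mean 18977 ± 2932, SD, n = 8). In vHC Swim it lay between 17228 and 25314 with a median of 19361 (19963 ± 2783, SD, n = 6). In dHC CTRL its range was 16268 to 24326 with a median of 21426 (21188 ± 2949, SD, n = 6). In dHC Swim its range was 17260 to 34115 with a median of 19897 (22068 ± 6216, SD, n = 6). The value of 34115 was that of library 6, which stood apart from the other 5 libraries of its group. mir-29c followed the same order of magnitude in each group: its means were 14189 ± 2219 in vHC CTRL, 14645 ± 1681 in vHC Swim, 15799 ± 2370 in dHC CTRL and 15730 ± 4151 in dHC Swim (SD, with n = 8, 6, 6 and 6). Its lowest, median and highest values were 10108, 14391 and 17568 in vHC CTRL and 12225, 14569 and 17422 in vHC Swim. They were 12090, 15986 and 18484 in dHC CTRL and 13153, 13719 and 23721 in dHC Swim, where library 6 was again the highest.

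The mir-29b entries spread much more within a group. mir-29b-1 lay between 570 and 2088 normalized CPM in vHC CTRL (median 918), between 711 and 2622 in vHC Swim (median 1037), between 657 and 3196 in dHC CTRL (median 1104) and between 581 and 2182 in dHC Swim (median 1310). Its SD was 675, 697, 1072 and 702 normalized CPM around means of 1251, 1310, 1567 and 1383 in the same order. mir-29b-2 had means of 1289 ± 662, 1351 ± 675, 1605 ± 1064 and 1425 ± 690 (SD). As the plot of levels by group shows, the libraries at the top of each group for mir-29b came from block 1.

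**Figure D1:**
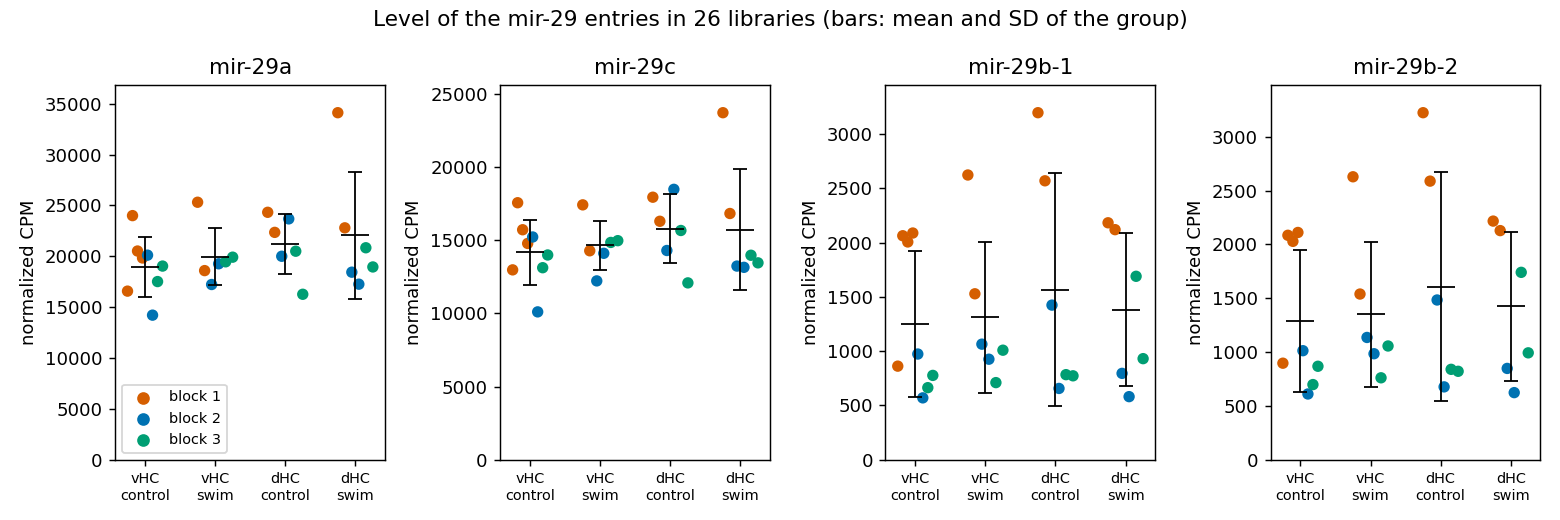
Level of each mir-29 entry in normalized CPM (vertical axes, from 0) in the 26 libraries by group, with points coloured by block and bars for the mean and SD of the group. The groups overlap for each entry, and the mir-29b entries fall into high and low libraries mostly by block, with the highest value of mir-29b-1 at 3196.

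No member passed the test for swim stress. The question of this comparison is whether acute stress alters small RNAs of the hippocampus within 45 mins. Over stress and interaction together, 0 of 463 entries (0%) passed the threshold of an adjusted p of 0.05, and 16 had an unadjusted p under 0.05. The test was the quasi-likelihood test of edgeR, adjusted over the 463 entries by the Benjamini-Hochberg method, and DESeq2 called 0 entries as well. The members' adjusted p-values in edgeR were 0.935 for mir-29a, 0.971 for mir-29b-1, 0.967 for mir-29b-2 and 0.971 for mir-29c.

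In vHC the log2 difference of Swim against CTRL was 0.056 for mir-29a (SE 0.11, 95% confidence interval -0.17 to 0.28), 0.043 for mir-29c (SE 0.11, interval -0.19 to 0.27), 0.014 for mir-29b-1 (SE 0.11, interval -0.21 to 0.23) and 0.014 for mir-29b-2 (SE 0.10, interval -0.19 to 0.22). In dHC it was 0.042 for mir-29a (SE 0.12, interval -0.20 to 0.28) and -0.0091 for mir-29c (SE 0.12, interval -0.25 to 0.24). The mir-29b entries had log2 differences of -0.045 and -0.044 in dHC (SE 0.11 for both, intervals -0.28 to 0.19 and -0.26 to 0.18). All these intervals, which hold for the fit with surrogate variables, include 0 and reach at most 0.28 from it on the log2 scale. With block in place of surrogate variables the vHC differences were 0.30 for mir-29b-1 and 0.29 for mir-29b-2 (edgeR adjusted p = 0.648 for both), and without either covariate the dHC differences were -0.18 for both. Each contrast had 0% of entries called, with 34 entries at an unadjusted p under 0.05 in vHC and 17 in dHC. The interaction, which compares the stress differences of the regions, gave log2 values between -0.058 and -0.015 for the members, and none passed (0% of entries called, 23 at an unadjusted p under 0.05). With block in place of surrogate variables it was -0.37 for mir-29b-1 and -0.36 for mir-29b-2 (edgeR adjusted p = 0.858 for both), so its size for mir-29b rested on the covariates. These fits held 2 surrogate variables. The first shared 72.7% of its variance with block, and the second shared 91.1% with region, which was itself in the model.

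dHC levels in control mice were higher than vHC levels by 0.21 to 0.46 on the log2 scale, and no member passed the test. Of all entries, 104 of 463 (22.5%) passed in this comparison, 36 higher and 68 lower in dHC. The log2 difference was 0.21 for mir-29a (SE 0.12, edgeR adjusted p = 0.195), 0.21 for mir-29c (SE 0.12, adjusted p = 0.191), 0.46 for mir-29b-1 (SE 0.22, adjusted p = 0.127) and 0.44 for mir-29b-2 (SE 0.22, adjusted p = 0.133). Within blocks the dHC mean of mir-29a was 23339 against 20233 normalized CPM in vHC in block 1, 21841 against 17164 in block 2 and 18384 against 18279 in block 3. For mir-29b-1 the same means were 2883 against 1755, 1041 against 772 and 779 against 721 normalized CPM. The dHC mean was thus the higher one in all 3 blocks for these members, by amounts that ranged from small to large.

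The mir-29b result in control mice depended on single choices. Without dHC CTRL library 24, the shallowest one, mir-29b-1 had a log2 difference of 0.57 (adjusted p = 0.0416) and mir-29b-2 one of 0.55 (adjusted p = 0.0409), so that 2 of 4 members passed. Without the filter on low counts the adjusted p-values were 0.00994 and 0.0140. With surrogate variables in place of block the differences turned to -0.28 and -0.36, in a fit whose second surrogate variable shared 91.1% of its variance with region.

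After swim the difference between regions was smaller and no member passed, beside 94 of 463 entries (20.3%) called. The log2 differences of dHC against vHC were 0.13 for mir-29a (SE 0.13), 0.084 for mir-29c (SE 0.12), 0.084 for mir-29b-1 (SE 0.23) and 0.077 for mir-29b-2 (SE 0.23), with edgeR adjusted p-values between 0.539 and 0.898. Block means of mir-29b-1 after swim went in different directions, with 2151 in dHC against 2075 normalized CPM in vHC in block 1, 689 against 995 in block 2 and 1310 against 860 in block 3. Without dHC Swim library 6 the difference of mir-29a was 0.0059, and without dHC Swim library 28 that of mir-29b-1 was -0.16. The comparisons of region in control mice and after swim contrast different libraries. They come from the same fit over all 26 libraries, with a shared estimate of the spread and shared block terms, so they are not independent.

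Markers of other cell types were counted beside the share of all entries called, 22.5% in control mice and 20.3% after swim. Of the oligodendrocyte entries, 3 of 3 were higher in dHC in control mice and 3 of 3 after swim, among them mir-338, which is made in myelinating cells, by 0.50 (SE 0.10, edgeR adjusted p = 0.000243) in control mice. Their summed level was between 4331 and 7619 normalized CPM in dHC CTRL and between 3322 and 4940 in vHC CTRL. Of 8 neuronal entries 0 passed in either comparison. In control mice 0 of 3 myeloid, 0 of 3 endothelial and mural, 2 of 4 blood (both lower) and 6 of 6 choroid plexus and ciliated cell entries (3 higher, 3 lower) passed, and after swim 0, 0, 1 (lower) and 4 (1 higher, 3 lower) did. In control mice the 2 blood entries were mir-486a and mir-486b, at -0.92 each. The other blood entries, mir-144 and mir-451a, did not pass and leaned the other way, at 0.40 and 0.15. Their part in the mir-29 values was not tested.

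The largest differences within the family were between blocks, and they were larger for mir-29b than for mir-29a and mir-29c. mir-29b-1 lay between 862 and 3196 normalized CPM in block 1 (median 2104, mean 2124 ± 629, SD, n = 10). It lay between 570 and 1424 in block 2 (median 861, mean 874 ± 289, SD, n = 8) and between 664 and 1690 in block 3 (median 780, mean 917 ± 332, SD, n = 8). Of the 10 libraries of block 1, 8 were above all 16 libraries of blocks 2 and 3, and 9 of those 16 were below all of block 1. mir-29b-2 gave the same counts of libraries, with means of 2144 ± 627, 922 ± 299 and 972 ± 331 normalized CPM (SD). mir-29a had means of 22843 ± 4816, 18775 ± 2756 and 19062 ± 1527, and mir-29c of 16756 ± 2917, 13856 ± 2424 and 14019 ± 1145 normalized CPM (SD) in blocks 1, 2 and 3. For mir-29a 4 and for mir-29c 1 of the 10 block 1 libraries were above all others, so these blocks overlapped widely.

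In the test of block, 4 of 4 members passed, beside 246 of 463 entries (53.1%). The edgeR adjusted p-values were 0.0213 for mir-29a, 1.65e-06 for mir-29b-1, 2.59e-06 for mir-29b-2 and 0.0214 for mir-29c. Block 2 against block 1 gave log2 differences of -1.32 for mir-29b-1 (SE 0.20, adjusted p = 6.20e-06), -1.25 for mir-29b-2 (SE 0.19, adjusted p = 9.22e-06), -0.31 for mir-29a (SE 0.10, adjusted p = 0.0169) and -0.30 for mir-29c (SE 0.10, adjusted p = 0.0171), where 243 entries (52.5%) passed, 105 higher and 138 lower. Block 3 against block 1 gave -1.26, -1.18, -0.28 and -0.27 in the same order (adjusted p = 1.61e-05, 2.63e-05, 0.0300 and 0.0300), where 241 entries (52.1%) passed, 102 higher and 139 lower. Blocks 2 and 3 differed by 0.023 to 0.067 for the members, with 0 of 463 entries (0%) called by edgeR, 0 by DESeq2, and 51 at an unadjusted p under 0.05. Since most entries passed between block 1 and the rest, passing alone does not mark the family. The log2 difference of mir-29b-1 between blocks 2 and 1 was the lowest of the 113 entries at least as abundant, and the 17th lowest of all 463, whose values ran from -1.85 to 1.70.

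The calls of mir-29a and mir-29c between blocks depended on the scaling and on single libraries. With DESeq2 size factors, with TMMwsp scaling and in DESeq2's own test they were lost, and 2 of 4 members, the mir-29b entries, passed in each block comparison with block 1. With each library left out in turn, the members called between blocks 2 and 1 fell to 2 without vHC CTRL library 7, 9 or 23, dHC CTRL library 8 or dHC Swim library 20, and to 3 without dHC Swim library 22. Between blocks 3 and 1 they fell to 2 without vHC CTRL library 7, 9, 17 or 23, vHC Swim library 27, dHC CTRL library 8, 24, 26 or 32, or dHC Swim library 6, 16, 20 or 30, and to 3 without vHC Swim library 5 or dHC Swim library 22. In each case it was mir-29a, mir-29c or both that no longer passed. The log2 differences of mir-29a ranged from -0.35 to -0.20 and from -0.32 to -0.19 over these fits, and those of mir-29c from -0.33 to -0.18 and from -0.31 to -0.18. The median log2 difference of all entries between blocks 2 and 1 was -0.048 with TMM and 0.032 with DESeq2 size factors, and between blocks 3 and 1 it was -0.081 and -0.019. With DESeq2 size factors the split of entries passing against block 1 was 137 higher and 119 lower for block 2, and 121 and 115 for block 3.

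**Figure D2:**
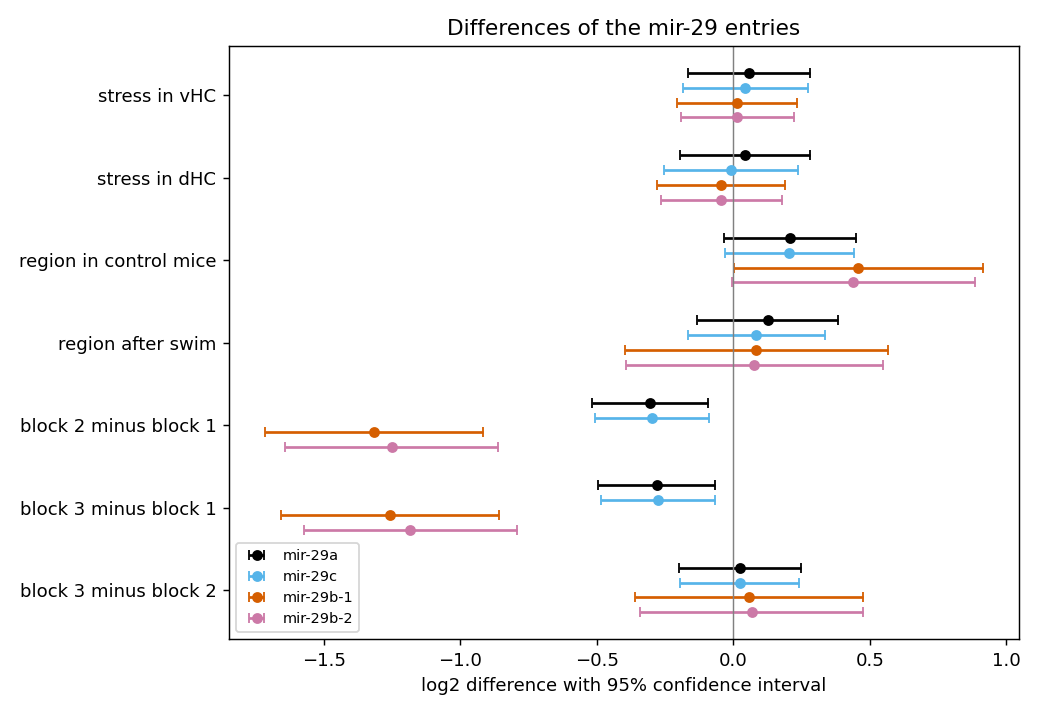
Log2 differences of the 4 mir-29 entries (horizontal axis) with 95% confidence intervals for 7 comparisons. The stress comparisons are from the fit with surrogate variables, and those of region and block from the fit with block. With block in place of surrogate variables the vHC stress difference of mir-29b-1 was 0.30, above its interval here. Swim against CTRL sits near 0, dHC against vHC at or somewhat above 0, and blocks 2 and 3 against block 1 below 0, at -1.32 and -1.26 for mir-29b-1 and near -0.3 for mir-29a and mir-29c.

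Ratios within a library, which no scaling between libraries can move, separated mir-29b from its relatives. The ratio of mir-29c to mir-29a was between 0.671 and 0.783 in the 26 libraries. The geometric means of blocks 1, 2 and 3 were 0.738, 0.735 and 0.735. None of its 7 comparisons passed (adjusted p between 0.485 and 0.994 over 14 ratio tests, two-sided exact permutation tests). The ratio of mir-29b, both entries summed, to mir-29a was between 0.106 and 0.264 in block 1, with a geometric mean of 0.181 (n = 10). It was between 0.0564 and 0.145 in block 2 (geometric mean 0.0924, n = 8) and between 0.0757 and 0.165 in block 3 (geometric mean 0.0954, n = 8). Of the 10 block 1 libraries 8 were above all of blocks 2 and 3, and 13 of those 16 were below all of block 1. The log2 difference was -0.97 between blocks 2 and 1 (exact permutation p = 0.000411, adjusted p = 0.00288) and -0.93 between blocks 3 and 1 (exact permutation p = 0.000320, adjusted p = 0.00288). Between blocks 3 and 2 it was 0.046 (exact permutation p = 0.823, adjusted p = 0.971). The ratio tests did not adjust for depth. The lowest ratio, 0.0564, was that of dHC CTRL library 24, the shallowest. The highest of block 3, 0.165, was that of dHC Swim library 28, the deepest.

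Neither region nor stress moved the ratio of mir-29b to mir-29a past the test. Its log2 difference between dHC and vHC was 0.067 in control mice and -0.074 after swim, and that between Swim and CTRL was 0.035 in vHC and -0.11 in dHC (adjusted p = 0.971 for each, exact permutation tests). These differences are not adjusted for block. vHC CTRL had 4 of its 8 libraries in block 1, where the ratio was highest, against 2 of 6 in each other group. The comparisons with vHC CTRL therefore mix block with group. Within blocks 1, 2 and 3 the region difference in control mice was 0.57, -0.00060 and 0.10, and after swim -0.26, -0.51 and 0.55. The stress difference in dHC was -0.67, -0.20 and 0.55, and that in vHC 0.15, 0.31 and 0.11, each above the 0.035 over all blocks. For mir-29c to mir-29a the largest of the 4 differences was that of Swim against CTRL in dHC, -0.058 (exact permutation p = 0.104, adjusted p = 0.485), with -0.034, -0.014 and -0.13 within the blocks.

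**Figure D3:**
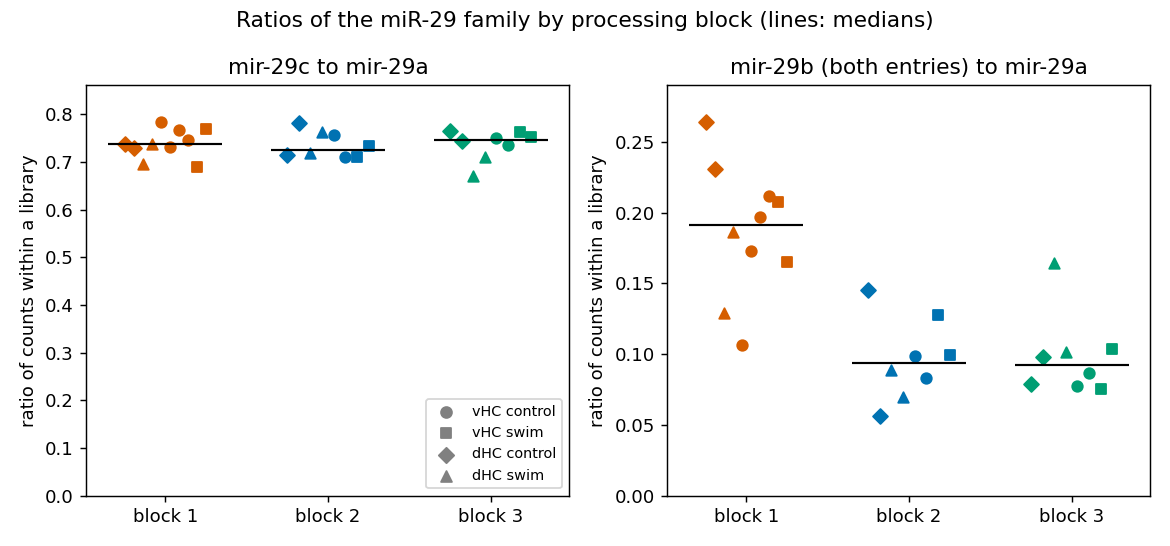
Ratio of mir-29c to mir-29a (left) and of the summed mir-29b entries to mir-29a (right) within each of the 26 libraries (vertical axes, from 0), by block, with a shape for each group and lines for the medians. The left ratio stays between 0.671 and 0.783 throughout, and the right ratio has a median of 0.191 in block 1 against 0.0940 in block 2 and 0.0922 in block 3.

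mir-29a and mir-29c, which lie in different clusters, varied together more closely than either did with the mir-29b entries. Over 26 libraries, after group and block means were taken out of the log2 levels, mir-29a on chromosome 6 and mir-29c on chromosome 1 had a Pearson r of 0.964 and a Spearman rho of 0.947 (permutation p = 1e-05 for both, which is the smallest that 100000 permutations can give, adjusted p = 3e-05 over 6 pairs). Without the 2 libraries farthest from the median, r was 0.952, and within blocks 1, 2 and 3 it was 0.985, 0.967 and 0.950. mir-29a and its cluster neighbour mir-29b-1 had an r of 0.429 and a rho of 0.392 (permutation p = 0.0283 and 0.0478, adjusted p = 0.0458 and 0.0717), an r of 0.402 without the 2 farthest libraries, and values of 0.567, 0.309 and 0.327 within the blocks. With DESeq2 size factors this r was 0.301 (adjusted p = 0.213), and with group and block means left in it was 0.676 (adjusted p = 0.00012). mir-29c and its cluster neighbour mir-29b-2 had an r of 0.247 and a rho of 0.244 (permutation p = 0.222 and 0.229, adjusted p = 0.222 and 0.267), an r of 0.187 without the 2 farthest libraries, and values of 0.497, 0.0768 and 0.0609 within the blocks. mir-29a with mir-29b-2 (r = 0.424) and mir-29c with mir-29b-1 (r = 0.255) lay in the same range. The mir-29b entries had an r of 0.999, which their shared mature sequence already ties. All members of a library share its depth and its scaling, and the difference between these correlations was not tested. Since counts of miR-29b-3p could not be assigned to a locus, values for a cluster neighbour stand for mir-29b as a whole. They therefore cannot compare clusters. miR-29a-3p and miR-29c-3p differ by C10U alone, and whether reads shared between entries add to their r was not tested.

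**Figure D4:**
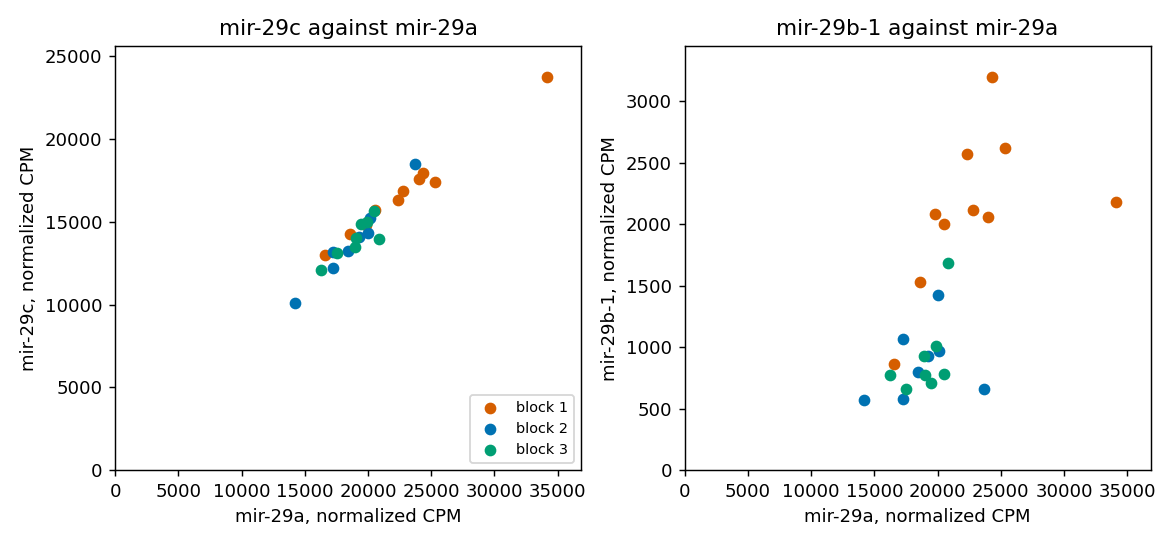
Level of mir-29c (left) and mir-29b-1 (right) against that of mir-29a, all in normalized CPM, for the 26 libraries coloured by block. mir-29c follows mir-29a along 1 line in all blocks up to library 6 at 34115 and 23721 normalized CPM, while mir-29b-1 spreads widely at a given level of mir-29a and is highest in block 1.

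Outside the family, the entries whose levels over the 26 libraries were most like the mean of mir-29a and mir-29c were mir-99a (r = 0.770), mir-1955 (r = 0.747) and the mir-124 copies mir-124-3, mir-124-1 and mir-124-2 (r = 0.745 each). This is a description over 459 entries, whose median r was 0.064. mir-124 is a strongly neuron-restricted miRNA, and mir-99a belongs to a family with another seed. mir-1955 had a mean of 4.70 normalized CPM and rested on few counts.

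Between blocks, the copies of mir-29b differed by an amount that did not follow their level. These values were looked at after the levels were known, and they carry no test. Between the entries the difference of deposited counts, mir-29b-2 minus mir-29b-1, was positive in each library and a whole number, within 0.011, in 24 of 26 libraries. mir-29b-1 held 89.5% to 99.8% of the count of mir-29b-2. In CPM of the miRNA total, without further scaling, the sum of both entries had a median of 4242 in block 1, 1822 in block 2 and 1714 in block 3. The difference between them went the other way, with 5.48 to 33.1 in block 1 (median 22.04), 15.04 to 76.1 in block 2 (median 48.2) and 31.1 to 94.9 in block 3 (median 52.2). At the lowest and highest sum of a block the difference was 33.1 and 28.6 in block 1. It was 15.04 and 65.7 in block 2, and 31.1 and 57.2 in block 3.

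**Figure D5:**
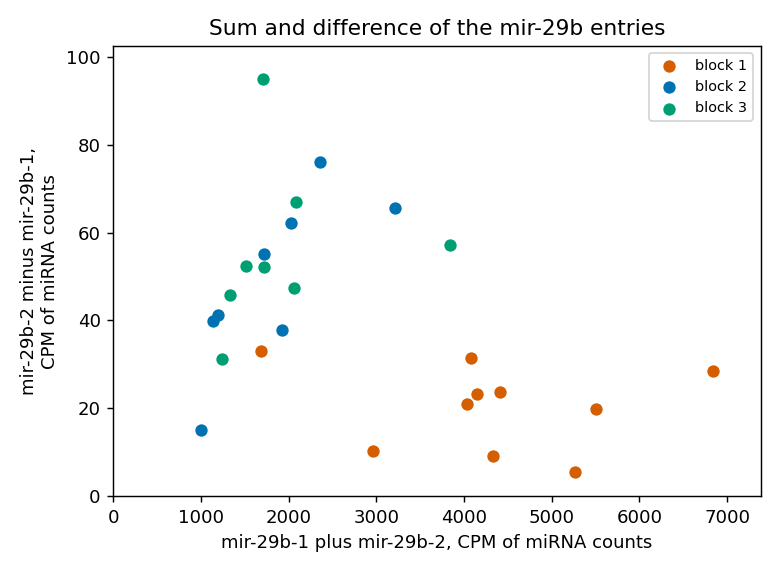
Sum of the mir-29b entries (horizontal axis) and the count of mir-29b-2 above mir-29b-1 (vertical axis), both in CPM of the miRNA total, for the 26 libraries coloured by block. Block 1 lies to the right and low, with a median sum of 4242 and a median difference of 22.04, and blocks 2 and 3 lie to the left and mostly higher.

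The mir-29b entries were higher in deeper libraries. Here the coefficient is the log2 change of a level for each doubling of the miRNA total, with group and block in the fit, and 34 of 463 entries (7.34%) passed, 8 rising and 26 falling. Without a scaling factor this balance turned over, to 200 rising and 8 falling. It was 0.38 for mir-29b-1 (SE 0.11, edgeR adjusted p = 0.0381) and 0.38 for mir-29b-2 (SE 0.11, adjusted p = 0.0318), so 2 of 4 members passed. It was -0.11 for mir-29a (SE 0.06, adjusted p = 0.218) and -0.16 for mir-29c (SE 0.06, adjusted p = 0.0751). Without dHC CTRL library 18, dHC CTRL library 24 or dHC Swim library 28, in turn, 0 members passed, with coefficients of mir-29b-1 of 0.34, 0.46 and 0.29. The blocks had median miRNA totals of 2614270, 2958561 and 2234607, so block 1 lay between the other two in depth.

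Other miRNAs of mature neurons differed less between blocks than mir-29b. Of 18 entries on a list of such miRNAs, 0 passed for stress and 0 for region in control mice, and 2 were higher in dHC after swim, the copies of mir-129. Between blocks 2 and 1, 6 of the 18 passed, beside 52.5% of all entries, 2 higher (the copies of mir-125b, 0.63 and 0.59) and 4 lower (the copies of mir-124, -0.33, and mir-137, -0.37). Between blocks 3 and 1, 9 passed, beside 52.1% of all entries, 2 higher and 7 lower, the most negative being mir-129-2 at -0.45. The log2 differences of these named entries were each smaller in size than those of mir-29b. For depth 9 of the 18 passed, beside 7.34% of all entries, all lower in deeper libraries, with the copies of mir-9 at -0.42, the opposite sign to mir-29b. These 9 were the copies of mir-9, mir-128, mir-218 and mir-125b, with mean levels from 9648 to 39508 normalized CPM. The scarcer mir-137 (3046 normalized CPM), mir-138-1 (1474) and mir-138-2 (1300) had positive coefficients that did not pass. mir-124-1 (14232 normalized CPM, -0.14) and mir-129-1 (2011, -0.097) did not pass either. Outside the list, mir-143 of endothelial and mural cells (13778) fell too, by -0.24. Whether the depth coefficients follow abundance was not tested. Copies of a miRNA had close values, so the 9 entries do not stand for 9 separate miRNAs.

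Cell type markers passed between blocks alongside most entries of the table, 52.5% for block 2 and 52.1% for block 3 against block 1, so their counts mark no list out. Of 8 neuronal entries 4 were lower in block 2 and 4 in block 3 than in block 1. In both blocks these were mir-137 and the copies of mir-124, whose values were close, so they do not stand for 4 separate miRNAs. Summed levels of the 8 entries in normalized CPM were 84258 to 114417 for block 1, 80522 to 120032 for block 2 and 78883 to 94177 for block 3. In blocks 2 and 3 respectively, 1 and 1 of 3 oligodendrocyte entries were higher, 1 and 1 of 3 myeloid entries were lower, 0 and 1 of 3 endothelial and mural entries were higher, 3 (2 higher, 1 lower) and 1 (lower) of 4 blood entries passed, and 2 and 2 of 6 choroid plexus and ciliated cell entries passed (1 each way). The 2 higher blood entries of block 2 were mir-486a and mir-486b, whose values were close. Stress left 0 entries of every one of these lists called in either region. Whether cell content, library preparation or another feature of the blocks lies behind the mir-29b levels was not tested.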

How the data were processed

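Male mouse hippocampal small RNA was measured in 26 libraries made with the Nextflex v3 small RNA kit, and the labels gave each library's group and block. Adapters were trimmed by the authors (cutadapt), who then collapsed reads with the same sequence and molecular tag and quantified annotated RNAs with Sports, and the labels name the genome build GRCm38. The deposited values are expected counts per annotated entry, not normalized, and 29.5% of them were not whole. Before any count model they were rounded. All columns matched a sample. Molecular tags were collapsed, so a count stands for a pair of sequence and tag.

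The members and lists were chosen with earlier results of these data known. Named entries were all 4 members, their neighbours in rank, the 5 entries most like mir-29a and mir-29c, and listed miRNAs past the threshold. The lists were miRNAs of mature neurons and markers of neurons, oligodendrocytes, myeloid, endothelial and mural, blood, and choroid plexus and ciliated cells.

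The count models were edgeR 4.0.16 (quasi-likelihood, TMM, filterByExpr with a minimum count of 10 and a minimum total of 15), with limma 3.58.1, sva 3.50.0 and DESeq2 1.42.0 in R 4.3.3, over all 26 libraries and 463 miRNA entries, which hold 99.97% of miRNA counts. Stress was tested with region and 2 surrogate variables in the model. Region and depth were tested with block in place of surrogate variables, and block without them. p-values were adjusted by the Benjamini-Hochberg method with a threshold of 0.05. Ratios were compared by exact permutation tests and correlations by 100000 permutations in Python 3.11.15 with scipy 1.17.1, and figures were drawn with matplotlib 3.10.9. The count models were tested on simulated data, where stress was fitted without the surrogate variables used above. Sequences came from RefSeq (GRCm38.p6) and overlaps from GENCODE, and 4 of 4 members matched both at the same positions. Alternatives were other scalings, no filter, DESeq2, other covariates, summed precursor copies and leaving out each library. Total miRNA counts of 465387 to 4819724 limit the precision, which is given as standard errors and 95% confidence intervals.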

Additional observations from a re-analysis of the deposited data

Results flagged for a closer look

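Of 42 sets of libraries (4 members and 2 ratios, each over 4 groups and 3 blocks), 8 held a library that stood apart from the rest by Dixon's test at 95%, where chance gives about 1 in 20 for a single set. The sets are not independent, since each library counts in a group and in a block and members vary together. All 8 flags fell on libraries 5, 6 and 28, so their number cannot be set against 1 in 20. dHC Swim library 6, of block 1, was the highest for mir-29a, at 34115 normalized CPM, among the dHC Swim libraries and among those of block 1. It was also the highest for mir-29c, at 23721 normalized CPM, in the same sets. vHC Swim library 5, of block 1, was the highest of its group for mir-29a, at 25314 normalized CPM. dHC Swim library 28 was the highest of block 3 for mir-29b-1, at 1690 normalized CPM, for mir-29b-2, at 1741 normalized CPM, and for the log2 ratio of mir-29b to mir-29a, at -2.60. Library 6 was high for mir-29a and mir-29c alike, so its ratio of the pair did not stand apart. Library 28 was flagged for mir-29b and its ratio to mir-29a alone. It was also the deepest library, with a total miRNA count of 4819724, and the highest of block 3 for mir-29a, at 20840 normalized CPM.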

How the results depend on the processing

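The mir-29b entries kept their call between block 1 and each other block under every alternative and without each library, and 0 members passed for stress or for region after swim under any of them. Members called fell from 4 to 2 for block, for blocks 2 and 1 and for blocks 3 and 1 with DESeq2 size factors, with TMMwsp and in DESeq2's test. Without a filter on low counts, 2 members passed for region in control mice. With precursor copies summed, 1 member passed for depth, where 3 were fitted, and 19 entries did. Entries called for region were 67 in control mice and 56 after swim with no covariate, and 59 after swim with surrogate variables in place of block. With those surrogate variables the region differences of mir-29b-1 and mir-29b-2 turned to -0.28 and -0.36 in control mice and to -0.33 and -0.42 after swim. Entries called for region in control mice were 36 higher and 68 lower with TMM, but 66 and 64 with DESeq2 size factors and 63 and 64 with TMMwsp. With block in place of surrogate variables the interaction of mir-29b-1 and mir-29b-2 was -0.37 and -0.36 and their stress difference in vHC 0.30 and 0.29. The cause of these shifts was not tested.

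For depth the scaling set the direction for mir-29a, mir-29c and the balance of entries passing. The coefficients of mir-29b-1 and mir-29b-2 stayed positive, between 0.34 and 0.56, under the alternatives that kept all libraries. The median coefficient of all entries was 0.047 with TMM, 0.23 without a scaling factor and 0.22 with library sizes over the whole table. In the latter fits 208 entries (200 rising, 8 falling) and 202 entries (191 rising, 11 falling) passed, against 8 rising and 26 falling with TMM, and the coefficients turned to 0.066 and 0.055 for mir-29a and to 0.018 and 0.0069 for mir-29c. The same scalings turned the stress difference of mir-29c in dHC to 0.016 and 0.013 and the interaction of mir-29a to 0.023 and 0.013. The correlation of mir-29a with mir-29b-1 and mir-29b-2 was 0.301 and 0.296 with DESeq2 size factors and 0.676 and 0.674 when group and block means were left in. That of mir-29c with them was 0.111 and 0.103, and 0.617 and 0.612, under the same alternatives.

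With each library left out in turn, members called ranged from 0 to 2 for region in control mice, from 2 to 4 for block and for each comparison with block 1, and from 0 to 3 for depth. Entries called ranged from 21 (without dHC Swim library 28) to 53 (without dHC Swim library 6) for depth, and from 0 to 1 between blocks 3 and 2. The stress difference in vHC ranged from -0.034 to 0.12 for mir-29b-1 and from -0.027 to 0.11 for mir-29b-2. In dHC it ranged from -0.075 to 0.11 for mir-29a, from -0.11 to 0.039 for mir-29b-1, from -0.11 to 0.036 for mir-29b-2 and from -0.13 to 0.064 for mir-29c. The interaction ranged from -0.15 to 0.051, from -0.16 to 0.025, from -0.16 to 0.023 and from -0.18 to 0.013 in the same order. The region difference after swim ranged from -0.16 to 0.18 for mir-29b-1, from -0.15 to 0.17 for mir-29b-2 and from -0.025 to 0.10 for mir-29c. Between blocks 3 and 2 the differences ranged from -0.014 to 0.065 for mir-29a, from -0.11 to 0.17 for mir-29b-1, from -0.091 to 0.18 for mir-29b-2 and from -0.026 to 0.074 for mir-29c.

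The log2 ratio of mir-29c to mir-29a ranged from -0.018 to 0.0071 for region in control mice, from -0.077 to -0.040 for stress in dHC (exact permutation p down to 0.0346, unadjusted, without library 22), from -0.017 to 0.0046 between blocks 2 and 1, from -0.016 to 0.014 between blocks 3 and 1 and from -0.0077 to 0.019 between blocks 3 and 2. That of mir-29b to mir-29a ranged from -0.15 to 0.30 for region in control mice, from -0.21 to 0.077 for region after swim, from -0.12 to 0.17 for stress in vHC, from -0.34 to 0.11 for stress in dHC and from -0.066 to 0.14 between blocks 3 and 2. No paired analysis was run, because the groups share no library number. Each dHC library carries the number after that of a vHC library of the same condition and block, but no label used here says that such libraries share a mouse, and they were not paired. If they do share one, both fall in the same block, and the block tests count them as separate. The depth of dHC CTRL library 24 limits the values that rest on it.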
